A study of Homo sapiens and Mus musculus with 160 samples.

Results

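Cytoplasmic loss of mRNA was set against its loading onto polysomes, gene by gene, in K562, an established human leukaemia line of erythroid character. A gene was included when the authors gave it a cytoplasmic half-life and a polysome-loading half-life in both replicate tables, when each value lay inside its own 95% credible interval, and when each was below 6800 minutes. Of 18165 genes listed per table, 11124 had both half-lives in both tables and 10430 met all conditions. Of the 694 left out, 620 had a half-life of 6800 minutes or more and 74 had a value outside its own interval. The highest half-life among the genes kept was 6700 minutes and the lowest that led to exclusion was 6800 minutes.

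The series holds 160 samples from human K562 and mouse NIH-3T3 cells. The values described here rest on untreated K562 cells, with no transgene, knockdown or drug named in the labels, that were given 4-thiouridine for 0, 15, 30, 60 or 120 minutes in 2 replicate time courses. This uridine analog is built into new RNA, and TimeLapse chemistry then makes it read as a T-to-C mismatch, so the share of new RNA in a fraction can be followed over time. Chromatin, nuclear, cytoplasmic, polysome and total RNA were sequenced, and 10 cytoplasmic and 10 polysome samples stand behind the 2 half-lives compared. K562 is a single cancer cell line, and the labels do not say whether the replicates were separate cultures, so p-values measure only the spread between the 2 tables, which may be technical.

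An mRNA that has left the nucleus binds initiation factors, recruits ribosomes and becomes part of a polysome, several ribosomes on the same message. The polysome-loading half-life is the authors' estimate of how long cytoplasmic RNA stays untranslated, and the cytoplasmic half-life describes how fast RNA is lost from the cytoplasm. Untranslated RNA is itself part of the cytoplasmic RNA, so a part is set against the whole. Equality of these half-lives is therefore not a neutral reference, and how large a gap this alone would give was not tested. Messages for the translation machinery itself are known for a run of pyrimidines at the 5' end, the 5' TOP motif, through which their translation responds to growth signals.

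All values below are the authors' posterior modes in minutes, each from the fit of 1 time course, given for replicate 1 and replicate 2 in that order. The log2 ratio is the cytoplasmic over the polysome-loading half-life, so a positive value means that cytoplasmic loss was slower than loading. The 10 erythroid marker genes examined (among them HBG1, GATA1 and ALAS2) all had values in both tables, whereas 1 of 9 fibroblast markers, COL1A2, did. Reads per gene are not part of the tables, so depth is unknown and the authors' intervals were taken as the measure of precision within a time course. They were a median of 1.57-fold and 1.62-fold wide, upper over lower bound, for the cytoplasmic half-life, and 5.07-fold and 5.13-fold for polysome loading. Only 669 genes, 6.41%, had all 4 intervals at most 4-fold wide, here called narrow.

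The cytoplasmic half-life, which covers untranslated RNA as well, was longer than the polysome-loading half-life for most genes. The median cytoplasmic half-life was 85.0 and 74.0 minutes, against 6.90 and 12 minutes for polysome loading. The interquartile range was 44.0 to 150 minutes in replicate 1 and 38.0 to 130 minutes in replicate 2 for the cytoplasm, against 3.5 to 15 and 6.10 to 26.0 minutes for loading. The median log2 ratio was 3.43 in replicate 1 and 2.32 in replicate 2, and 2.83 for the mean of both, which is a 7.10-fold difference. The replicates differed more in loading than in loss. Across genes the median of replicate 1 minus replicate 2 was -0.85 on the log2 scale for loading and 0.17 for the cytoplasm. The cytoplasmic half-lives of the tables lay within 2-fold of each other for 90.1% of genes and the loading half-lives for 43.6%.

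With the authors' intervals apart in the same direction in both tables, 6208 of 10430 genes (59.5%) had a longer cytoplasmic half-life and 18 (0.173%) a longer polysome-loading half-life. The remaining 4204 genes fell into neither class. Limma, a linear model that pools the spread over genes, found 6110 genes (58.6%) with the cytoplasmic half-life longer and 35 (0.336%) with loading longer at an adjusted p under 0.05. Both approaches named the same 5752 genes with longer cytoplasmic half-life and the same 17 with longer loading. When each table was fitted as a block, since the 2 half-lives of a table come from the same time course, limma gave 5750 and 61. The log2 ratio was above 0 in both tables for 8673 genes (83.2%), below 0 in both for 227 (2.18%), and of unlike or zero sign for 1530. Loading was at least 10-fold faster than loss in both tables for 2953 genes (28.3%).

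**Figure D1:**
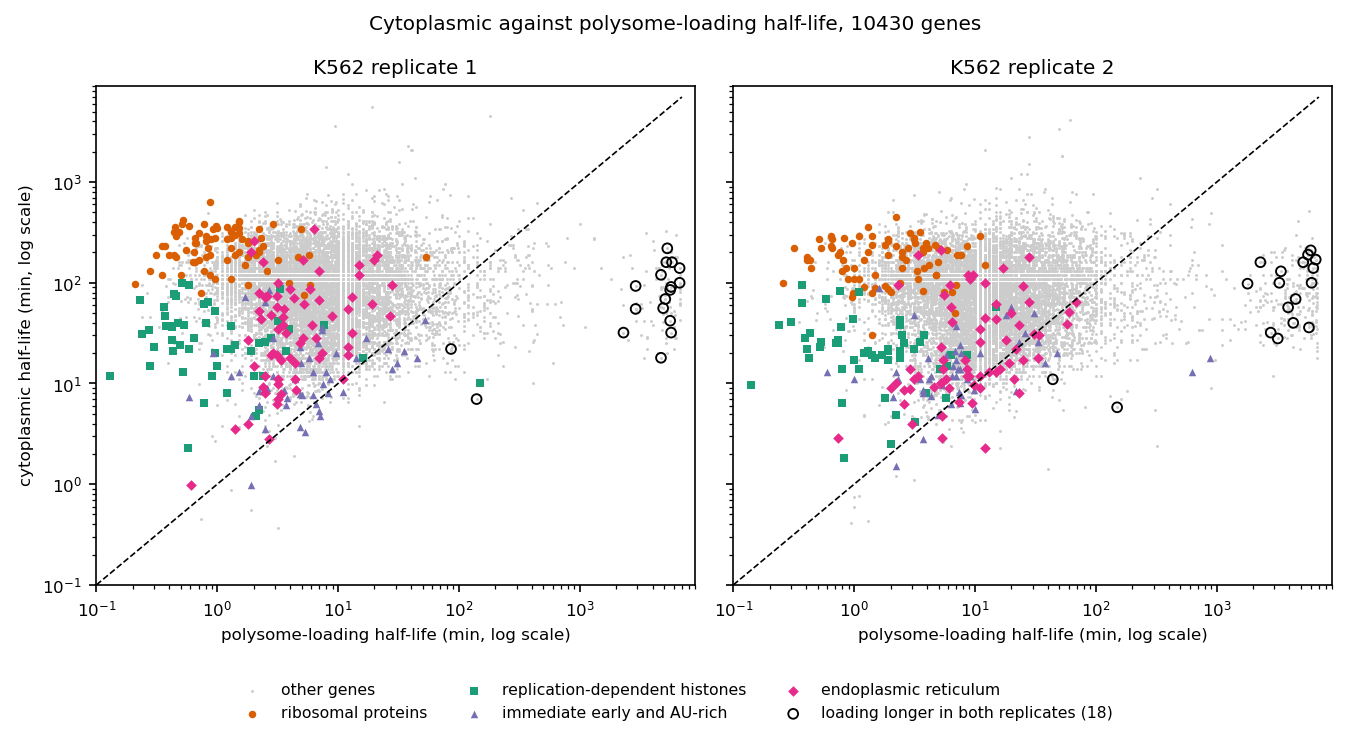
Cytoplasmic half-life (vertical, minutes, log scale) against polysome-loading half-life (horizontal, minutes, log scale) of 10430 genes in K562 replicate 1 and replicate 2, with 4 gene groups coloured and the 18 genes with slower loading ringed. Points above the dashed line of equality have the longer cytoplasmic half-life, and most ribosomal protein and histone genes lie towards the left edge while 16 of the ringed genes lie beyond 1000 minutes on the right.

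The 2 half-lives were close to unrelated across genes. Spearman's rho between cytoplasmic and loading half-life was -0.01 in replicate 1 and 0.00 in replicate 2 over the 10430 genes, and Pearson's r of the log2 values was 0.02 and 0.04. Among the 669 genes with narrow intervals the rho values were 0.30 and 0.30. Both half-lives of a gene come from the same fit and libraries, and genes are not independent replicates, so these are descriptions. Between tables, rho was 0.89 for the cytoplasmic half-life, 0.55 for loading and 0.63 for their ratio.

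All 4 combinations of fast and slow occurred. Taking the upper or lower 25% of a half-life in both tables, 335 genes (3.21%) combined a long cytoplasmic half-life with fast loading and 176 (1.69%) a short one with slow loading. Another 263 genes (2.52%) were short in both and 276 (2.65%) long in both. The gene groups described below fell into different corners. Of the 80 cytosolic ribosomal protein genes, 26 of 47 in the large and 21 of 33 in the small subunit were long in the cytoplasm and fast to load. Of 52 replication-dependent histone genes, 36 (69.2%) were short in both. Of 345 zinc-finger genes, 22 (6.38%) were short in the cytoplasm and slow to load, and 3 were short in both.

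Ribosomal protein messages had the widest gap of the 24 gene lists. All 47 large-subunit and all 33 small-subunit genes had the longer cytoplasmic half-life by the intervals, against 59.5% of all genes, and limma called 46 and 33 of them. The large-subunit genes had median cytoplasmic half-lives of 210 and 170 minutes and median loading half-lives of 0.870 and 1.90 minutes. For the small subunit the medians were 260 and 200 minutes in the cytoplasm, against 1.30 and 1.90 minutes for loading. The median log2 ratio was 7.12 and 7.02, against 2.83 over all genes. RPL31 (hg38 chromosome 2, 101001715 to 101024032) headed the large subunit with 320 (interval 300 to 350) and 220 (200 to 250) minutes in the cytoplasm, against 0.48 (0.17 to 0.8) and 0.32 (0.11 to 0.54) minutes to load. Its log2 ratio was 9.40 (SE 0.55, limma adjusted p = 0.00555). RPS2 (chromosome 16, 1962052 to 1964860) headed the small subunit with 420 and 270 minutes, against 0.52 and 0.51 minutes, a log2 ratio of 9.35 (SE 0.52). The cytoplasmic and loading values of both genes did not overlap between tables. At the other end stood RPL37A, with 180 and 200 minutes in the cytoplasm but 53 (36 to 100) and 3.7 (1.4 to 6.2) minutes to load, which limma did not call (adjusted p = 0.0748). RPS29 had the lowest ratio of the small subunit, 94 and 81 minutes against 5.8 and 6.4 minutes. Loading half-lives under a few minutes lie far below the shortest labelling time of 15 minutes and rest on the fitted model. Ribosomal protein genes also have many near-identical pseudogene copies, and how shared reads were assigned is not given in the sources used here.

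Translation factors followed the same order. All 53 had the longer cytoplasmic half-life by the intervals and by limma, with medians of 140 and 120 minutes in the cytoplasm, against 1.80 and 4.60 minutes for loading. TPT1, a growth-related factor whose message carries a 5' TOP, had 320 and 220 minutes, against 0.49 and 1.1 minutes. EIF3B, a scaffold subunit of initiation factor 3, had 220 and 200 minutes, against 1 and 1.1 minutes. The smallest gap belonged to EIF4E2, a cap-binding protein that represses translation, with 140 and 83 minutes, against 11 (4.3 to 19) and 34 (12 to 60) minutes (log2 ratio 2.48, SE 0.77, limma adjusted p = 0.0493). EIF1B, a start-codon selection factor, followed at 66 and 56 minutes, against 3.7 and 10 minutes.

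The letters at the annotated start of transcription are shown for messages of this kind because a 5' TOP is a sequence property that the half-lives did not use. RefSeq windows (GRCh38.p14) run from 10 bases before the start to 19 bases after it, and the capitals mark the start base and the next 4. A start was counted as TOP when it read C followed by 4 letters that were each C or T, on the strand of the gene.
RPL31 (chr2:101002279-101002308, plus strand): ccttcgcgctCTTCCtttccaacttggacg
RPLP0 (chr12:120201092-120201121, minus strand): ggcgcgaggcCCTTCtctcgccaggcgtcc
RPS25 (chr11:119018324-119018353, minus strand): gcagcgcttcCTTTTtgtccgacatcttga
RPL35 (chr9:124861938-124861967, minus strand): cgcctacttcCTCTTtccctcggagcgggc
EEF1A1 (chr6:73521013-73521042, minus strand): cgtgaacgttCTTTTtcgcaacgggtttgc
TPT1 (chr13:45341164-45341193, minus strand): ctgagtcggcCTTTTccgcccgctcccccc
OAZ1 (chr19:2269476-2269505, plus strand): gcctgggcgcAGCATctataaaggcgggcg
EIF3B (chr7:2354817-2354846, plus strand): tcgcacgcacATGGCtgggctgtagccgtc
H4C14 (chr1:149832647-149832676, plus strand): tcgccttgacAGAAGctgtctatcgggctc
H3C15 (chr1:149852598-149852627, plus strand): ctaggagctcGTTTTtctccccgccgctgc
ZNF573 (chr19:37779567-37779596, minus strand): gggaacacccAATCTatggcttcccttccg
RPL19 (chr17:39200273-39200302, plus strand): tctccccttcGCAGAtaatgggaggagccg
TMEM107 (chr17:8176361-8176390, minus strand): ggaaggaggcGTTCGtctagatttgtcggc
The first 6 windows hold a TOP start and the other 7 do not. Among those 7 is the ribosomal protein gene RPL19, with the motif at neither of its 2 listed starts. OAZ1, EIF3B and the histone genes H4C14 and H3C15, also without it, loaded within a few minutes. Windows of SKP2, UBP1, WDR43 and CHURC1-FNTB, not shown, hold no TOP start either. A window was found for 8283 of the 10430 genes by symbol, and 658 of these (7.94%) had a TOP at one or more listed starts. Over all RefSeq genes with a window the share was 5.14%, and over all windows 4.07%. It was 73.7% for the large subunit (28 of 38), 76.9% for the small subunit (20 of 26), 27.9% for translation factors (12 of 43) and 0 of 47 for histones. When genes were ordered by loading half-life and cut into 5 equal groups, the fastest group (median 2.89 minutes) had a share of 11%, and the others had 7.31%, 6.57%, 7.10% and, in the slowest (median 42.0 minutes), 7.66%. Without ribosomal protein genes the fastest group had 8.64%. No match says only that these letters are not at an annotated start in the table.

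Among genes with narrow intervals, the 12 with the largest gap included 4 ribosomal protein genes and 2 elongation factor genes. OAZ1, the antizyme that limits polyamine synthesis (hg38 chromosome 19, 2269509 to 2273490), had 190 (170 to 200) and 140 (120 to 150) minutes in the cytoplasm, against 2.6 (1.1 to 3.9) and 3 (1.5 to 4.3) minutes for loading. Its log2 ratio was 5.87 (SE 0.51, limma adjusted p = 0.00555). RPS25 had 340 and 220 minutes, against 4.9 and 4.9 minutes, and RPS26 180 and 160 minutes, against 4.7 and 4.9 minutes. EEF1A1, the elongation factor that brings aminoacyl-tRNA to the ribosome (chromosome 6, 73515750 to 73523797), had 96 and 93 minutes, against 1.2 (0.48 to 1.9) and 5.6 (4.1 to 6.9) minutes. RPL35 had 170 and 120 minutes, against 3.2 and 4.8 minutes, and TUFM, the mitochondrial elongation factor, 240 and 190 minutes, against 4 and 9.8 minutes. The ribosome assembly genes WDR43 and PDCD2 were in this set with 89 and 79 minutes, against 1 and 5.6 minutes, and with 220 and 180 minutes, against 2.8 and 12 minutes. Outside translation stood SKP2, a substrate receptor of a ubiquitin ligase (280 and 220 minutes, against 3.1 and 13 minutes), UBP1, a transcription factor (160 and 200, against 4.8 and 4.7), and PRELID1, a mitochondrial lipid carrier (120 and 79, against 2.8 and 2.7). The 12 genes were chosen among those with the longer cytoplasmic half-life by the intervals, so the order within each table was set by that choice. Across tables as well, both cytoplasmic values were above both loading values in each of these genes. RPL19 ranked first with a mean log2 ratio of 5.87, but its loading half-life was 0.21 (0.082 to 0.24) minutes in replicate 1 and 6.8 (2.6 to 10) minutes in replicate 2. Its log2 ratio was therefore 8.87 in replicate 1 and 2.88 in replicate 2.

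**Figure D2:**
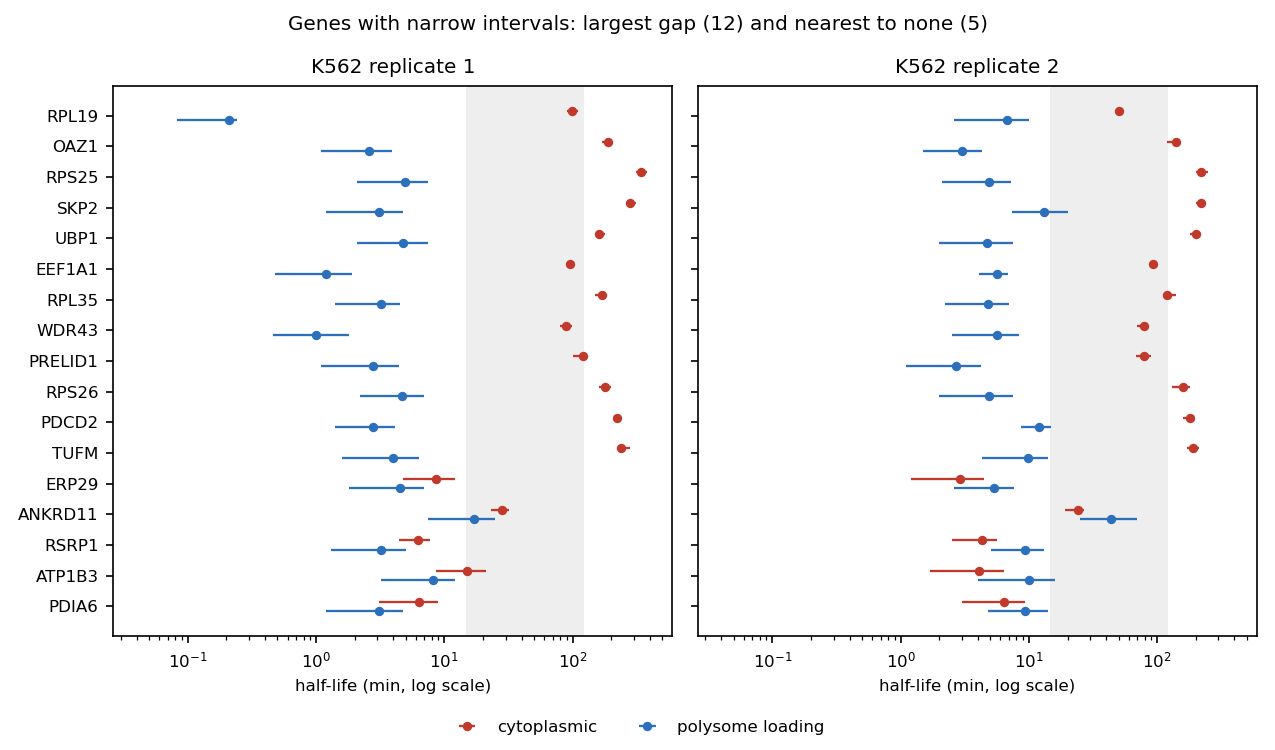
Cytoplasmic and polysome-loading half-lives (minutes, log scale) with the authors' 95% intervals in K562 replicate 1 and replicate 2 for the 12 genes with the largest gap and the 5 nearest to none, all with narrow intervals; the grey band spans the labelling times from 15 to 120 minutes. From RPL19 to TUFM, all chosen for a longer cytoplasmic half-life in both tables, every cytoplasmic value is right of every loading value. From ERP29 to PDIA6 the order of the 2 half-lives differs between tables.

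Genes of basic metabolism and protein quality control also loaded fast relative to their loss. All 42 proteasome genes and all 16 glycolysis genes had the longer cytoplasmic half-life by the intervals, and limma called 40 and 16, against 59.5% and 58.6% of all genes. The proteasome medians were 170 and 140 minutes in the cytoplasm, against 3.10 and 6.40 minutes for loading, and the glycolysis medians 135 and 125 minutes, against 2.45 and 5.05 minutes. PSMC4, an ATPase of the proteasome cap, had 170 and 150 minutes, against 1.2 and 1.7 minutes. TPI1, triosephosphate isomerase, had 220 and 160 minutes, against 1 and 0.47 minutes, while HK2, an inducible hexokinase, had 36 and 38 minutes, against 2.9 and 9.2 minutes. Of 42 chaperone genes, 40 had the longer cytoplasmic half-life (95.2%), led by the mitochondrial Hsp70 gene HSPA9 with 170 and 160 minutes, against 0.57 and 0.61 minutes. Both exceptions were heat-inducible: HSPA1A had 3.8 and 4.5 minutes, against 1.1 and 3.1 minutes, and BAG3 14 and 15 minutes, against 6.6 and 6.9 minutes. Neither passed limma's threshold (adjusted p = 0.210 and 0.109).

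Splicing regulators and mitotic genes lay in the same range. The share with the longer cytoplasmic half-life was 90.6% of 64 splicing regulators and 91.1% of 56 mitotic genes by the intervals, against 59.5% of all genes. HNRNPU, a nuclear RNA-binding protein gene, had 180 and 230 minutes in the cytoplasm, against 0.43 and 0.87 minutes for loading, and SMC4, a condensin subunit gene, had 230 and 220 minutes, against 0.89 and 3.2 minutes. The kinase gene CLK4, with 30 and 25 minutes against 8.7 and 43 minutes, and the hnRNP gene HNRNPH2, with 23 and 15 minutes against 7.3 and 25 minutes, had the smallest gaps among splicing regulators. For both, the ratio was above 0 in replicate 1 and below 0 in replicate 2. ASPM, a spindle pole gene, had 14 and 6.8 minutes, against 2.8 and 5.9 minutes. Of the 55 assessed splicing regulators, 19 (34.5%) carried the authors' call of nuclear degradation, against 3.18% of all assessed genes.

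Nuclear genes for the respiratory chain, mitochondrial ribosomes and the aminoacyl-tRNA synthetases of cytosol and mitochondria held single genes with slow loading. The cytoplasmic half-life was the longer one by the intervals for 80.0% of 75 respiratory chain genes, 85.7% of 77 mitochondrial ribosomal protein genes and 84.2% of 38 synthetase genes, against 59.5% of all genes. NDUFV1, a core complex I gene, had 630 (510 to 790) and 670 (530 to 820) minutes in the cytoplasm, against 7.3 and 2.1 minutes for loading, and MRPS16 had 180 and 160 minutes, against 1.1 and 1.3 minutes. VARS1, the valyl-tRNA synthetase gene, had 210 and 210 minutes, against 1.5 and 2.1 minutes. At the low end, NDUFB8 had 280 and 200 minutes, against 1300 (58 to 3100) and 52 (14 to 110) minutes, and MRPL36 63 and 80 minutes, against 110 and 34 minutes. PARS2, the mitochondrial prolyl-tRNA synthetase gene, showed how far the tables could part: 22 and 21 minutes in the cytoplasm, against 14 (4.4 to 28) minutes in replicate 1 and 6700 (6600 to 6800) minutes in replicate 2. None of these 3 passed limma's threshold.

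Replication-dependent histone messages, which end in a stem-loop instead of a poly(A) tail, were lost fast and loaded faster. The 52 genes had median cytoplasmic half-lives of 26.5 and 21.5 minutes, against medians of 0.795 and 1.35 minutes for loading. Over all genes the medians were 85.0 and 74.0 minutes, against 6.90 and 12 minutes. The intervals placed 42 genes (80.8%) with the longer cytoplasmic half-life and none with loading longer, against 59.5% and 0.173% of all genes, and limma called 44 (84.6%). H4C14 had 68 and 63 minutes, against 0.23 and 0.37 minutes, and H3C15 74 and 94 minutes, against 0.46 and 0.37 minutes, so cytoplasmic and loading values were far apart in both tables (limma adjusted p = 0.00555 for each). H3C14 was at the other end with 10 and 15 minutes, against 150 (4.3 to 420) and 5.9 (1.5 to 22) minutes, and H4C15 had 18 and 19 minutes, against 16 and 8.6 minutes. Copies within each histone class are nearly identical, H4C14 and H4C15 among them, so values of single copies are uncertain. The lists named 64 histone genes, of which 12 did not meet the conditions on the half-lives.

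Immediate early genes and other messages with AU-rich elements, sequences that recruit decay factors, had the smallest median ratio of the lists with more than 3 genes. The 49 genes had medians of 12 and 13 minutes in the cytoplasm, against 5 and 7 minutes for loading, and a median log2 ratio of 0.85. The intervals placed 16 (32.7%) with the longer cytoplasmic half-life, against 59.5% of all genes, and limma called 11 (22.4%). PIM1, a short-lived survival kinase gene, had 12 (11 to 13) and 11 (9.6 to 11) minutes, against 1.3 (0.5 to 2) and 2.3 (1.4 to 3.1) minutes. ZFP36L2, itself a decay factor that binds AU-rich elements, had 8.4 and 11 minutes, against 2.2 and 1 minutes. MCL1, an anti-apoptotic gene, had 36 and 37 minutes, against 7.4 and 7 minutes, and SPRED1, an inhibitor of Ras signalling, 34 and 48 minutes, against 7.4 and 18 minutes. The first 3 passed limma's threshold (adjusted p = 0.0165, 0.0233 and 0.0168) and SPRED1 did not (0.0751). These 4 were the only genes of the list with narrow intervals. Their log2 ratios, 1.81 to 2.73, lay above the list median, and the lowest ratio in the list was -3.30. Messages of the whole list were also short-lived before the cytoplasm, with median nuclear half-lives of 22 and 25 minutes, against 74.0 and 86.0 minutes over all genes.

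Zinc-finger genes of the KRAB and related C2H2 families, mostly transcriptional repressors, had shorter median cytoplasmic half-lives and slower median loading than all genes. The 345 genes that met the conditions, of 547 listed, had medians of 37.0 and 35.0 minutes, against 10 and 18 minutes for loading, and a median log2 ratio of 1.27. Over all genes the medians were 85.0 and 74.0 minutes, against 6.90 and 12 minutes, with a median log2 ratio of 2.83. The cytoplasmic half-life was the longer one by the intervals for 102 (29.6%) and by limma for 95 (27.5%), against 59.5% and 58.6% of all genes. Loading was the longer one for 2 by the intervals, ZNF573 and ZNF75D, and for 4 by limma. With narrow intervals, ZNF511 had 180 and 140 minutes, against 6.5 and 7.3 minutes, and ZFP91, which also acts as a ubiquitin ligase, 76 and 74 minutes, against 2.9 and 9.4 minutes. Both loaded faster than the list medians, and their log2 ratios, 4.53 and 3.84, lay above that of the list. Members of this family share long stretches of similar sequence, and how reads were divided among them is not given in the sources used here.

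**Figure D3:**
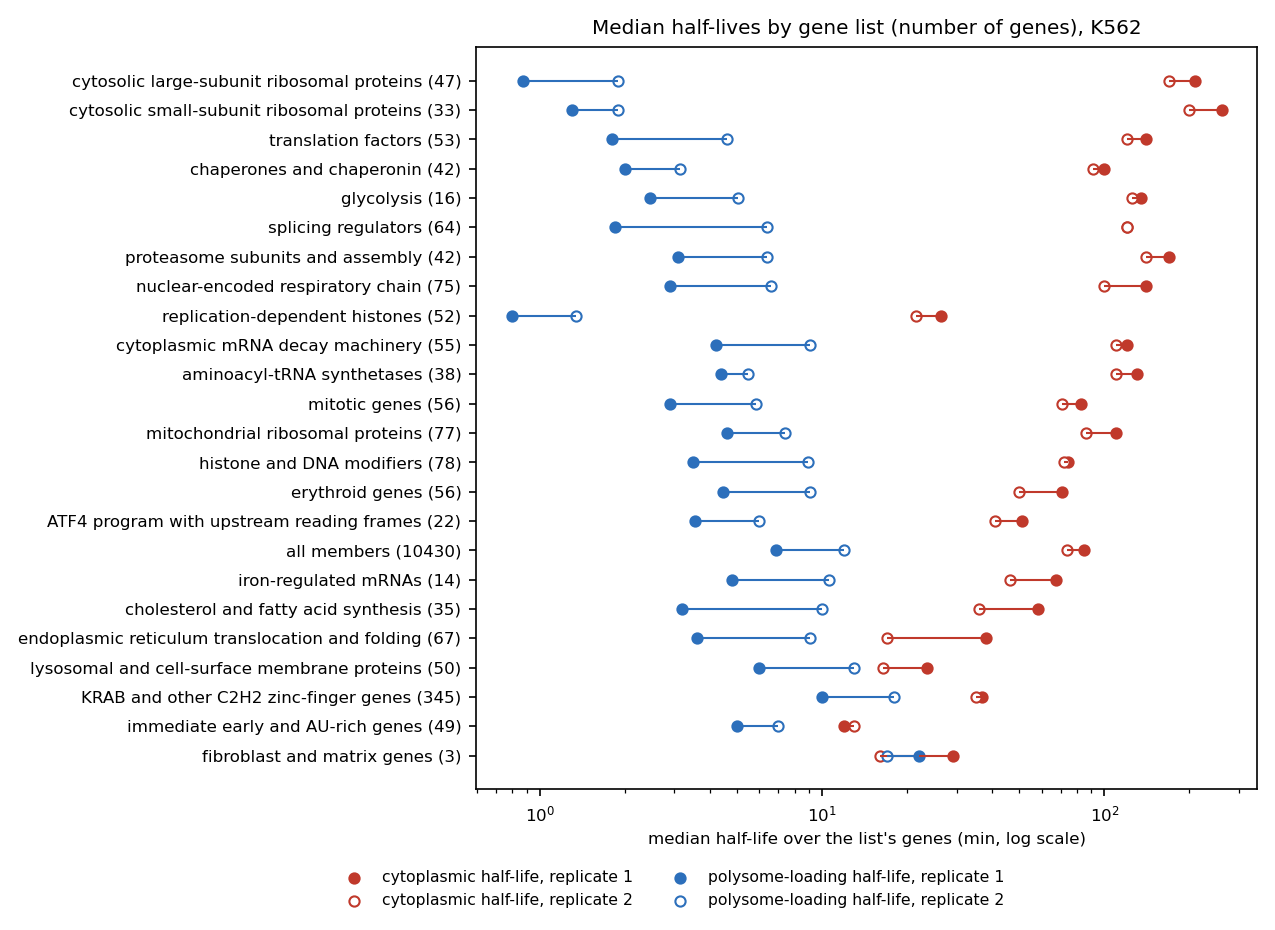
Median cytoplasmic and polysome-loading half-lives (minutes, log scale) of each gene list in K562 replicate 1 (filled) and replicate 2 (open), ordered by the median log2 ratio, with the number of genes in brackets. Ribosomal protein genes at the top span from about 1 or 2 minutes to about 200 minutes, and the pairs of points draw together towards the immediate early, zinc-finger and membrane protein lists at the bottom.

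Messages for proteins of the secretory pathway, which are translated at the endoplasmic reticulum, had a narrower gap than most. Of 67 genes for translocation and folding in the endoplasmic reticulum, 25 (37.3%) had the longer cytoplasmic half-life by the intervals and 23 (34.3%) by limma, against 59.5% and 58.6% of all genes. Their medians were 38.0 and 17 minutes, against 3.60 and 9.10 minutes for loading. Among 50 genes for lysosomal and cell-surface membrane proteins, 12 (24%) had the longer cytoplasmic half-life by the intervals and 9 (18%) by limma, with medians of 23.5 and 16.5 minutes, against 6 and 13 minutes. The median log2 ratios differed widely between tables, at 2.64 and 1.03 for the first list and 2.27 and 0.35 for the second. ITGB1, the integrin beta1 gene, had 7.3 (3.9 to 10) and 5.4 (2.6 to 7.8) minutes, against 5.4 (2.4 to 8.1) and 19 (13 to 25) minutes. TSPAN3, a tetraspanin gene, had 40 and 28 minutes, against 5 and 8 minutes, and IL6ST, a cytokine receptor subunit gene, 26 and 23 minutes, against 3.4 and 9.1 minutes. OSTC, a subunit gene of the oligosaccharide transferase, had 35 and 10 minutes, against 3.2 and 5.2 minutes.

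The same lists had long half-lives in the nuclear fraction. The median nuclear half-life was 270 and 360 minutes for endoplasmic reticulum genes and 220 and 275 minutes for lysosomal and surface proteins, against 74.0 and 86.0 minutes over all genes. ITGB1 had 630 and 680 minutes and PDIA6 730 and 830 minutes. Whether the fractionation moved endoplasmic reticulum-bound messages between the nuclear and cytoplasmic fractions, and its part in these gaps, was not tested. Cholesterol and fatty acid synthesis genes lay between these lists and all genes, with 17 of 35 (48.6%) longer in the cytoplasm by the intervals, against 59.5% of all genes. FADS1, a fatty acid desaturase gene, had 170 and 110 minutes, against 2.9 and 22 minutes. SREBF1, a master regulator of lipid synthesis, had 50 and 50 minutes, against 4.5 and 4.6 minutes. SCD, another desaturase gene, had 4.8 and 2.3 minutes, against 1.5 (0.6 to 2.4) and 16 (13 to 19) minutes, so its order turned between tables.

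Erythroid genes give the view of the lineage K562 represents. Of 56 genes, 42 (75%) had the longer cytoplasmic half-life by the intervals and 39 (69.6%) by limma, against 59.5% and 58.6% of all genes, with medians of 71.0 and 50 minutes, against 4.45 and 9.10 minutes for loading. HBG1, a fetal globin gene, had 69 (66 to 73) and 66 (63 to 70) minutes, against 0.54 (0.2 to 0.87) and 0.41 (0.15 to 0.66) minutes (log2 ratio 7.16, SE 0.50, limma adjusted p = 0.00555). Its near-identical neighbour HBG2 had 23 (21 to 25) and 12 (10 to 14) minutes, against 2.8 and 4.8 minutes (log2 ratio 2.18, SE 0.63, adjusted p = 0.0409 by limma). How reads were divided between these copies is not given in the sources used here, so the difference between them is uncertain. The embryonic globin genes HBE1 (42 and 23, against 1.8 and 4 minutes) and HBZ (64 and 49, against 9.6 and 2.5 minutes) had the longer cytoplasmic half-life as well. So did the erythroid transcription factor genes GATA1, with 73 and 57 against 6.3 and 10 minutes, and NFE2, with 25 and 25 against 4 and 5.4 minutes. ALAS2, which starts heme synthesis in red cells, had 44 and 66 minutes, against 6.6 and 14 minutes, and EPOR, the erythropoietin receptor gene, 100 and 100 minutes, against 18 and 25 minutes. TFRC, the transferrin receptor gene, had 9.8 and 6.2 minutes, against 0.7 and 6.5 minutes, and did not pass limma's threshold (adjusted p = 0.236).

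Messages under specific translational control varied in their gap. In the iron-regulated and ATF4 lists, no gene had the longer loading half-life by the intervals or by limma. Ferritin messages carry an iron-responsive element in the 5' untranslated region that blocks initiation when iron is low. FTH1, the ferritin heavy chain gene, had 210 and 160 minutes in the cytoplasm, against 1.3 and 1.2 minutes for loading, and FTL, the light chain gene, 130 and 66 minutes, against 0.74 and 1.9 minutes. EPAS1, a hypoxia factor with such an element, had 89 and 45 minutes, against 6700 (6600 to 6800) and 65 (12 to 300) minutes, which limma did not call (adjusted p = 0.263). SLC11A2, an iron importer gene, had 44 and 32 minutes, against 12 and 29 minutes. Among 14 iron-regulated genes, 8 (57.1%) had the longer cytoplasmic half-life by the intervals, close to the 59.5% of all genes. Of 22 genes of the ATF4 program, many of them with upstream reading frames, 16 (72.7%) did, against the same 59.5%. SHMT2, a mitochondrial folate enzyme gene, had 160 and 110 minutes, against 1.6 and 1.6 minutes, and SLC35A4, whose message holds an upstream frame that is translated, 110 and 110 minutes, against 1.2 and 2.4 minutes. PHGDH, the entry enzyme of serine synthesis, again parted between tables, with 91 and 180 minutes, against 8.9 (2.6 to 19) and 3100 (3100 to 3200) minutes.

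Cytoplasmic decay factors and chromatin regulators had median log2 ratios of 4.23 and 3.63, against 2.83 over all genes. The decay list had 49 of 55 genes (89.1%) longer in the cytoplasm by the intervals, against 59.5% of all genes. It held UPF3A, a nonsense-mediated decay factor gene, at 150 and 150 minutes against 7.7 and 7 minutes, and PUM2, an RNA-binding repressor gene, at 88 and 81 minutes against 3.8 and 9.4 minutes. One gene of the list, TNRC6C, had the longer loading half-life, and DCP1A, a decapping cofactor gene, had 38 and 37 minutes, against 9.4 (3.9 to 15) and 6200 (6100 to 6300) minutes. Histone and DNA modifiers had 67 of 78 genes (85.9%) longer in the cytoplasm, again against 59.5%. NSD2, a histone H3 methyltransferase gene, had 160 and 170 minutes, against 3.8 and 12 minutes, and HDAC3, a deacetylase gene, 370 and 220 minutes, against 6.8 and 26 minutes. ASXL1 had 40 and 35 minutes, against 14 and 25 minutes, and TET3 33 and 27 minutes, against 3.7 and 39 minutes. Neither of the last pair passed limma's threshold. For fibroblast and matrix genes only 3 of 14 met the conditions, and none had the longer cytoplasmic half-life by the intervals; limma called 1, the fibronectin gene FN1. The list of snoRNA host and long noncoding genes, with 36 names, had no gene in the tables.

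The 18 genes with the longer loading half-life formed 2 sets. Of these, 16 had loading half-lives of 1800 to 6700 minutes in both tables, far beyond the longest labelling time of 120 minutes, with cytoplasmic half-lives of 18 to 220 minutes. TNRC6C, a scaffold protein of microRNA silencing (hg38 chromosome 17, 77959240 to 78108835), had 32 (23 to 42) and 36 (25 to 46) minutes in the cytoplasm, against 5700 (5600 to 5800) and 5800 (5700 to 5900) minutes for loading. Its log2 ratio was -7.40 (SE 0.48, limma adjusted p = 0.00555). FAM214B had the lowest ratio, -7.43, with 18 and 28 minutes, against 4700 and 3200 minutes. DLX1, a homeobox gene (chromosome 2, 172084740 to 172089677), had 32 and 32 minutes, against 2300 and 2800 minutes, and MED11, a Mediator subunit gene (chromosome 17, 4731428 to 4733610), 69 and 57 minutes, against 5100 and 3900 minutes. KHDC1 had 56 and 40 minutes, against 4900 and 4300 minutes, SPIN2B 85 and 69 minutes, against 5600 and 4500 minutes, and SYNGR1, a synaptic vesicle protein gene, 100 and 140 minutes, against 6700 and 6300 minutes. STK10, a kinase gene (chromosome 5, 172042073 to 172188386), had 93 and 100 minutes, against 2900 and 6100 minutes, and the zinc-finger gene ZNF573 had 55 and 100 minutes, against 2900 and 3300 minutes. PRELID2 had 160 and 160 minutes, against 5200 and 5200 minutes. AC005837.2 and AC025165.6 completed the 12 lowest ratios, at -6.17 and -5.21. AC244197.3, RSPH3, TMEM120A and ZNF75D followed between -4.94 and -4.75.

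Such values seldom recurred between tables. A loading half-life above 1000 minutes was given to 349 genes in at least 1 table and to 16 in both. For the 333 genes with it in only 1 table, the median loading half-life in the other was 17 minutes. The intervals around these values were also unlike the rest: of 365 loading values above 1000 minutes, 269 had an interval at most 1.1-fold wide, and none of the 20058 values of up to 120 minutes did. What set these values apart was not tested.

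TMEM107 and CHURC1-FNTB had slower loading at times nearer to those sampled. TMEM107, a component of the ciliary transition zone (hg38 chromosome 17, 8173237 to 8176399, minus strand), had 7 (2.6 to 12) and 5.8 (2.4 to 9.6) minutes in the cytoplasm, against 140 (50 to 760) and 150 (50 to 850) minutes for loading. Loading was the longer one in both tables, by -4.51 on the log2 scale (SE 0.49, limma adjusted p = 0.00555). The small nucleolar RNA gene SNORD118 lies within its annotated span on the same strand (8173454 to 8173587), so reads of these genes could be shared, and their part in the value was not tested. CHURC1-FNTB (chromosome 14, 64914485 to 65061803) had 22 (10 to 31) and 11 (4.6 to 17) minutes, against 86 (39 to 150) and 44 (21 to 70) minutes. Its log2 ratio of -1.98 (SE 0.67) missed limma's threshold, with an adjusted p of 0.0605. This is a readthrough gene that overlaps CHURC1 and FNTB, and its value is uncertain for that reason.

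**Figure D4:**
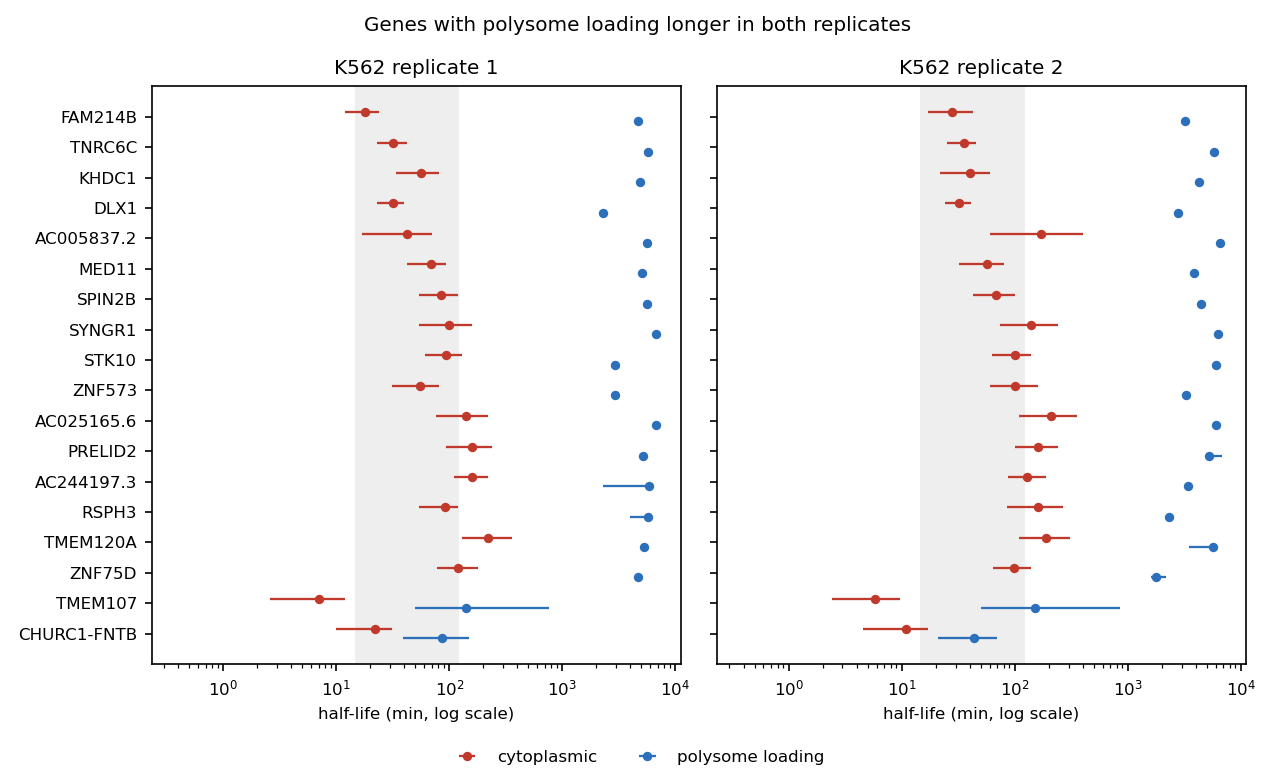
Cytoplasmic and polysome-loading half-lives (minutes, log scale) with the authors' 95% intervals in K562 replicate 1 and replicate 2 for the 18 genes with longer loading; the grey band spans the labelling times from 15 to 120 minutes. The upper 16 genes have loading values of 1800 to 6700 minutes, and TMEM107 and CHURC1-FNTB at the bottom have values of 44 to 150 minutes.

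The 5 genes with narrow intervals and a ratio nearest to 1 included 3 of the secretory pathway and cell surface. ERP29, a chaperone of the endoplasmic reticulum lumen, had 8.6 (4.8 to 12) and 2.9 (1.2 to 4.5) minutes in the cytoplasm, against 4.5 (1.8 to 6.9) and 5.3 (2.6 to 7.7) minutes for loading. PDIA6, a disulfide isomerase gene, had 6.3 and 6.4 minutes, against 3.1 and 9.4 minutes, and ATP1B3, a sodium pump subunit gene, 15 and 4.1 minutes, against 8.1 and 10 minutes. ANKRD11, a chromatin regulator gene, had 28 and 24 minutes, against 17 and 44 minutes, and RSRP1, an arginine- and serine-rich protein gene, 6.2 and 4.3 minutes, against 3.2 and 9.4 minutes. In all 5 the cytoplasmic half-life was the higher of the pair in replicate 1 and the lower in replicate 2, and the intervals of the pair overlapped in each replicate.

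Other half-lives differed in part between the classes. The whole-cell half-life had a Spearman's rho of 0.45 with the cytoplasmic half-life, which helps to set the classes. Its medians are therefore not separate from the choice of genes. The median whole-cell half-life was 260 and 240 minutes for genes with the longer cytoplasmic half-life, 155 and 185 for the 18 genes with longer loading, and 160 and 160 for genes in neither class. Median chromatin half-lives were close, at 44.0 and 50, 56.0 and 56.5, and 51.0 and 58.0 minutes. Nuclear medians were 74.0 and 86.0, 72.0 and 84.0, and 77.0 and 89.0 minutes. The authors' call of nuclear degradation was given to 3.82% of 6048 assessed genes with the longer cytoplasmic half-life, to 0 of 18 with longer loading and to 2.23% of 4074 in neither class.

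Message length was at most weakly related to either half-life. Over 10392 genes with a coding sequence in GENCODE v29, Spearman's rho with coding length was -0.04 for the cytoplasmic and -0.00 for the loading half-life. With the length of the 3' untranslated region it was -0.13 and -0.01. With genes cut into 5 equal groups by cytoplasmic half-life, the longest-lived (median 210 minutes) had a median 3' untranslated region of 642 bases, against 1189 bases in the shortest-lived (22.4 minutes). By loading half-life, the slowest and fastest groups had 816 and 876 bases. Cytoplasmic half-life had a rho of 0.45 with the whole-cell half-life, and loading -0.17. Among the 669 genes with narrow intervals these were 0.45 and 0.17, so the sign for loading turned.

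The same half-lives in NIH-3T3, a mouse embryonic fibroblast line labelled in the same way and untreated, served as the outside comparison. Under the same conditions 10609 mouse genes were kept, and 7850 could be paired with a K562 gene by symbol. Median log2 ratios over the paired genes were 3.73 and 2.54 in K562, against 1.84 and 1.80 in NIH-3T3. The cytoplasmic medians of the lines lay further apart than the loading medians, at 89.0 and 79.0 minutes in K562, against 36.0 and 34.0 minutes in NIH-3T3. Loading medians were 5.90 and 11 minutes in K562, against 9.20 and 8.90 minutes in NIH-3T3, so the NIH-3T3 values fell between the K562 tables. By the intervals, 3550 paired genes had the longer cytoplasmic half-life in both lines, of 5197 in K562 and 4440 in NIH-3T3. Of the 7 paired genes with longer loading in K562, 0 had it in NIH-3T3.

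In limma's test of the ratio itself, 2 K562 tables against 2 NIH-3T3 tables, 0 of 7850 genes (0%) passed an adjusted p under 0.05 in either direction, and the lowest adjusted p was 0.0693. This count rested on both NIH-3T3 tables: without NIH-3T3 replicate 1, 94 genes were higher and 6 lower in K562, and without NIH-3T3 replicate 2, 120 were higher and 9 lower, with the lone table assumed to vary like the others. With the posterior mean in place of the mode, 11 were higher and 1 lower. At an unadjusted p under 0.05, 1750 genes (22.3%) were higher and 105 (1.34%) lower in K562. With each table centred on its median, these counts were 651 and 655, again with none past the adjusted threshold. The K562 tables differed more from each other than the NIH-3T3 tables did. Simulated data of 10430 genes were built from the K562 half-lives and their spread between tables, without ratios or NIH-3T3 values. In them, 200 genes changed by 4 on the log2 scale gave no call. Changes of 8 were called for 70.5% of 200 genes, and changes of 4 in 6000 genes were called for 83.6%. In those data the size that could be detected thus depended on how many genes changed. Which sizes could be detected among the 7850 paired genes was not tested.

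List medians of the log2 ratio were higher in both K562 tables than in both NIH-3T3 tables except for small-subunit ribosomal proteins, endoplasmic reticulum, membrane protein, cholesterol, immediate early, zinc-finger and fibroblast genes, where the lines overlapped. Histone genes had 5.35 and 3.58 in K562, against 1.46 and 1.54 in NIH-3T3 over 40 paired genes. Translation factors had 6.06 and 4.66, against 3.25 and 3.09 over 51 genes, and proteasome genes 5.85 and 3.91, against 2.44 and 2.92 over 42 genes. Small-subunit ribosomal proteins, at 7.90 and 6.34 against 5.91 and 6.52, and immediate early genes, at 0.98 and 0.89 against 0.77 and 1.04, were among these. H3C15 had 74 and 94 minutes in the K562 cytoplasm, against 3.7 and 3.7 minutes in NIH-3T3, while loading took 0.46 and 0.37 minutes in K562, against 1.6 and 1.5 minutes in NIH-3T3 (difference of log2 ratios 6.40, SE 0.85, limma adjusted p = 0.106). The near-identical copy H3C14 differed in the other direction (difference of log2 ratios -4.03, SE 1.83, limma adjusted p = 0.245). Values of single histone copies are uncertain, and the lines were paired by symbol only. FTH1 had nearly the same ratio in both lines, 7.34 and 7.06 in K562 against 7.18 and 7.14 in NIH-3T3.

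**Figure D5:**
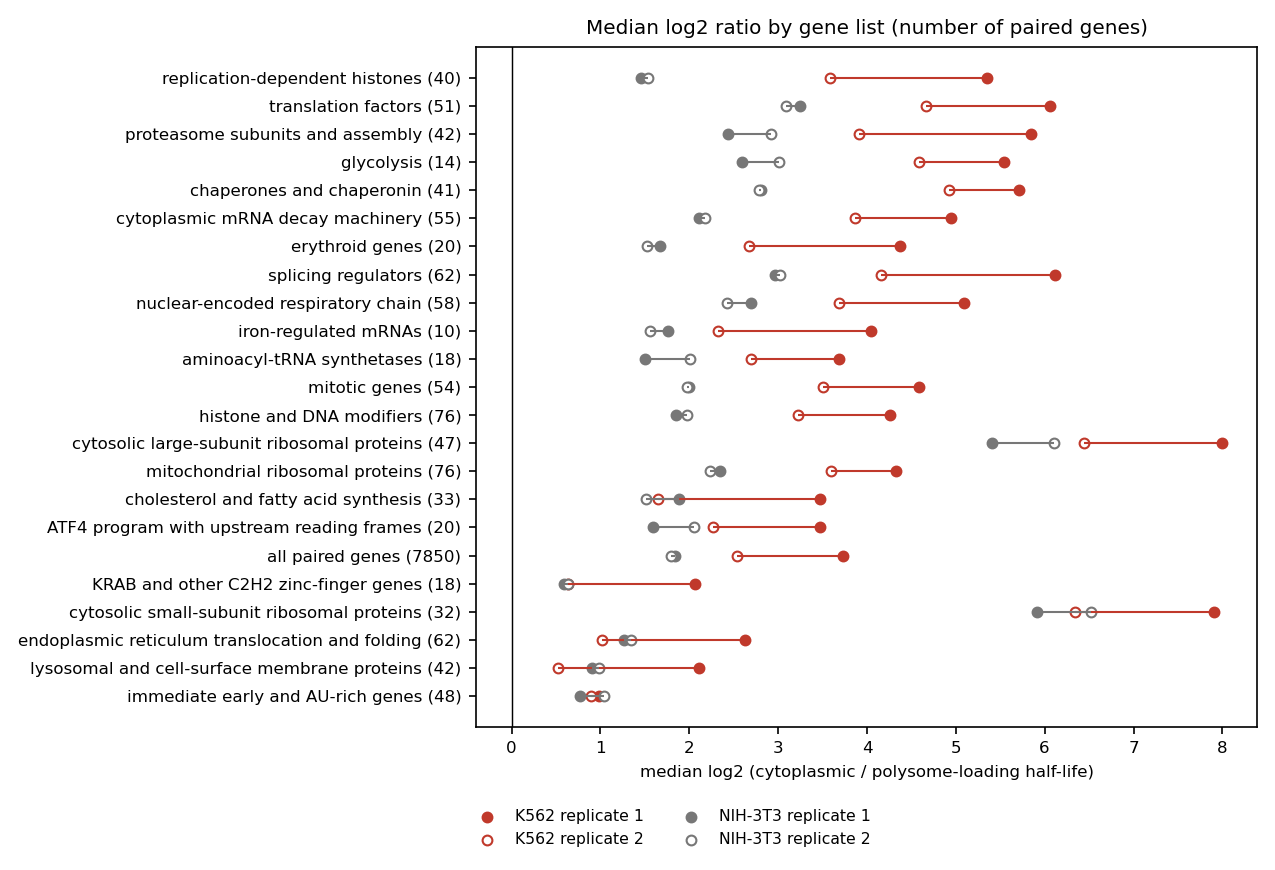
Median log2 ratio of cytoplasmic over polysome-loading half-life by gene list in K562 (red) and NIH-3T3 (grey), replicate 1 filled and replicate 2 open, with the number of paired genes in brackets. Over all paired genes K562 has 3.73 and 2.54 and NIH-3T3 1.84 and 1.80, and the red and grey points meet for immediate early and small-subunit ribosomal protein genes.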

How the data were processed

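RNA half-lives per gene were analysed from untreated K562 cells, with NIH-3T3 as comparison. Per the labels, a strand-specific kit for total RNA was used. Per the submitters' processing notes, cutadapt 2.5, STAR 2.7.0a and the builds hg38 and mm10 were used. The authors deposited 1 table per line and replicate, the outcome of a Bayesian fit of 1 time course, with posterior mode, posterior mean and 95% interval in minutes (unit: other, an absolute time). The settings of that fit and any other processing are not given in the sources used here, and 284 further columns of the tables were not used.

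Genes, lists and tests were chosen with earlier results of these data known. Log2 values were compared without pseudocount or centring by limma 3.58.1 in R 4.3.3 (two-sided, Benjamini-Hochberg over all genes), checked on simulated data: with 6000 of 10430 genes changed by 4 on the log2 scale it recovered 83%, with 200 such genes 0%, and with 200 changed by 8 it recovered 72%. A pair of half-lives in a table comes from 1 time course, so tables pair them by construction; their deviations between tables had a Pearson r of -0.16 across genes. Genes were named by rule: the 12 lowest ratios with slower loading, the 12 highest and 5 nearest 0 with narrow intervals, up to 4 per list, and 6 each way against NIH-3T3, besides marker genes and all 18 with slower loading. Alternatives were other gene filters, single tables, the posterior mean, a block and a variance trend. Coordinates are from GENCODE v29, start windows from RefSeq.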

Additional observations from a re-analysis of the deposited data

Results flagged for a closer look

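For 13 genes named by rule the log2 ratio had one sign in both K562 tables and the other in both NIH-3T3 tables. None passed limma's adjusted threshold for the difference between lines. Of these, 6 were negative in K562 and positive in NIH-3T3, with differences of log2 ratio (K562 minus NIH-3T3) of -9.30 for TNRC6C, -8.40 for TMEM107, -7.04 for DLX1, -7.01 for MED11, -6.28 for TMEM120A and -6.16 for STK10. TMEM107 had 7 and 5.8 cytoplasmic minutes in K562, against 410 and 89 in NIH-3T3, while its loading took 140 and 150 minutes in K562, against 15 and 11 in NIH-3T3. The other 7 were positive in K562 and negative in NIH-3T3, at 10.95 for CREM, 10.67 for COA7, 10.48 for FDXACB1, 9.46 for BRAT1, 9.28 for RBM38, 9.04 for SH3YL1 and 4.14 for PSMB10. FDXACB1 loaded in 8.4 and 4.4 minutes in K562, against 5600 and 6100 minutes in NIH-3T3. RBM38 had 2.2 and 3.6 minutes, against 1900 and 1700 minutes. PSMB10, an immunoproteasome subunit gene, had 16 and 34 minutes, against 200 and 70 minutes. Apart from TMEM107 and PSMB10, each of these genes had loading half-lives of at least 900 minutes in both tables of one line. All but PSMB10 had been named for having the lowest p in this same comparison by limma, so that choice favoured opposite signs. The share of such genes among all 7850 paired genes is not given here.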

How the results depend on the processing

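The gap between cytoplasmic loss and loading kept its direction under every alternative run: the median log2 ratio, 2.83, ranged from 2.24 (narrow intervals) to 3.43 (replicate 1 alone). Of 46 counts and medians under other settings, leaving aside the median of single tables, 27 stayed within the limits set for them. By intervals, genes with longer loading numbered 110 to 271 in single tables, against 18 in both, and 2 with all half-lives between 5 and 500 minutes. Genes with longer cytoplasmic half-life numbered 461 of 669 (68.9%) with narrow intervals, against 59.5% of all genes. Between 5 and 500 minutes they numbered 2447 of 5482 (44.6%). Both settings tested fewer genes, and the share rose in the first and fell in the second. By limma, narrow intervals left 468 and 16. Longer loading, 35 genes, became 61 with the replicate block, 12 with a variance trend, 22 with the posterior mean and 148 over every gene with both half-lives; longer cytoplasmic half-life became 5750 with the block, and 5365 and 25 genes were shared by the fits with and without it. The replicate numbers of limma's 2 against 2 test cannot be left out in turn, because 1 value a side leaves no residual spread. Against NIH-3T3, the 0 and 0 genes higher and lower in K562 became 11 and 1 with the posterior mean and 1 and 3 with narrow intervals. Leaving out a table gave 0 to 120 higher and 0 to 9 lower; without NIH-3T3 replicate 1 they were 94 and 6, without NIH-3T3 replicate 2 they were 120 and 9, and with either K562 replicate left out the counts were 0 and 0, the lone replicate being assumed to vary like the others. Of 126 named genes, 23 changed the sign of their log2 ratio in 1 of the single tables and 6 with the posterior mean, DCP1A, PARS2, PHGDH, SCD, SPCS3 and H3C14 among the 23. None of these had been called by intervals or limma. The posterior mean moved 22 named genes by more than the SD between tables. Why values moved was not tested. Half-lives far from 15 to 120 minutes are limited by the labelling times.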
